A study of Mus musculus with 32 samples.

Results

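Chemokine ligands are small secreted proteins that direct the movement of leukocytes by binding receptors on their surface. The genes described here are those whose mouse symbol begins with Ccl or Cxcl and a number, with Cx3cl1 and Xcl1, and each was read from the probe with the highest mean signal. They number 34 of the 20659 genes that could be named on the array. RNA was measured on 32 one-colour arrays in 8 groups of 4, from C57Bl/6 mouse material that the labels call preadipocytes throughout. In culture, cells with a knockdown of Pparg, the nuclear receptor that drives fat cell formation, were set against Pparg control cells, and cells with a knockdown of Gyk, the glycerol kinase gene listed on the array as Gk, against Gyk control cells. In mice, material labelled Pparg knockout was set against control material, both after cold exposure and at room temperature. All cultures carry the label room temperature. How each knockdown or knockout was made, in which cells it acted and whether the 4 samples of a group were separate cultures or animals is not given in the sources used here, so a p-value here reflects how far these arrays scatter, and that scatter may be technical.

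In adipose tissue, chemokine ligands are made by fat cells and their precursors, by endothelial cells and by resident leukocytes. The CC ligands Ccl2, Ccl7, Ccl8 and Ccl12 attract mainly monocytes, the CXC ligands Cxcl1, Cxcl2 and Cxcl5 attract neutrophils through Cxcr2, and Cxcl9 and Cxcl10 are induced by interferon and attract T cells through Cxcr3. Cxcl12, Cxcl14, Ccl19 and Ccl25 are also made without inflammation, each in its own set of tissues. Cx3cl1 and Cxcl16 are made as membrane-anchored proteins from which a soluble form is cut. Many inflammatory members are targets of the transcription factor NF-kappaB, and Pparg is known to restrain such genes in macrophages.

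Detection separated the members before any comparison was made. A probe counted as measured on an array where the scanner software called it well above background. On every one of the 32 arrays 9 members were measured, namely Ccl2, Ccl5, Ccl6, Ccl8, Ccl9, Ccl25, Ccl27a, Cx3cl1 and Cxcl16. Ccl7 was measured on 31 arrays, Cxcl10 on 30, Ccl19 on 29, Ccl17 on 27 and Cxcl12 on 24. Ccl11, an eosinophil attractant, Cxcl13, a B cell attractant, and Cxcl14 were each measured on the 16 mouse arrays and on no culture array. Ccl12 and Ccl4 were likewise measured in mice alone, on 15 and 13 arrays, and Cxcl9 and Ccl24 were each measured on the 16 mouse arrays and 1 culture array. The culture arrays instead carried Cxcl1 on all 16, with 3 mouse arrays, and Cxcl5 on 11, of which 8 belong to the Pparg experiment and 3 to the Gyk control cells. Ccl20, Ccl22, Ccl26, Cxcl2, Cxcl3, Cxcl15 and Xcl1 were measured on no array, and Ccl1, Ccl28, Cxcl17 and Ccl3 on 1 or 2. These 11 members entered no test, and the other 23 did.

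**Figure D1:**
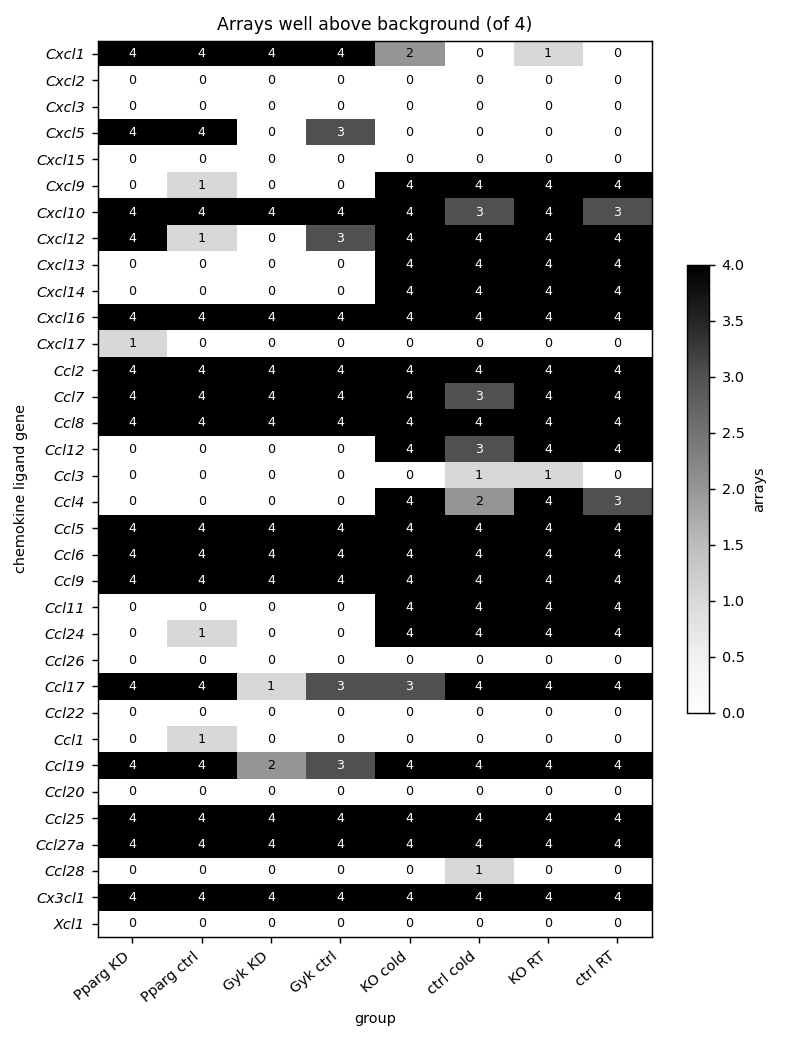
Number of arrays, of 4 in each group, on which each chemokine ligand gene was well above background, with genes down the page by role and groups across (KD knockdown, KO labelled Pparg knockout, ctrl control, RT room temperature). Cxcl9, Cxcl13, Cxcl14, Ccl11 and Ccl24 read 4 in each mouse group, whereas Cxcl1 reads 4 in each culture group.

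The start regions of the members were read from RefSeq promoter windows of the build GRCm38.p6, each from 250 bases before to 50 after a transcript start. Windows for 24 of the 34 members were matched. Each window was searched on both strands for a 10-base NF-kappaB-type motif and for the 10-base core of an interferon-stimulated response element. The first was in the windows of 8 of the 24 members (Ccl1, Ccl19, Ccl20, Cxcl1, Cxcl2, Cxcl3, Cxcl9 and Cxcl10) and in those of 6.59% of all 27025 genes. The second was in the windows of 3 of the 24 (Ccl19, Cxcl10 and Cxcl14) and in those of 3.99% of all genes. In Ccl1, Cxcl1, Cxcl2 and Cxcl3, NF-kappaB-type matches on opposite strands overlapped. The windows of Cx3cl1, Cxcl12, Ccl6, Ccl8, Ccl9, Ccl12 and Ccl25 held neither set of letters. Neither did those of Ccl3, Ccl17, Ccl22, Ccl27a, Ccl28, Cxcl13, Cxcl15 and Xcl1. The windows of Ccl2, Ccl4, Ccl5, Ccl7, Ccl11, Ccl24, Ccl26, Cxcl5, Cxcl16 and Cxcl17 are not analysed here. The 250 bases before the start are shown for the member that held both motifs and was called in cultured cells (Cxcl10), for the one with the highest fold among the mouse genotype comparisons (Cxcl14) and for one of the members, with Cxcl12, called higher after Pparg knockdown and lower in the labelled knockout at room temperature (Cx3cl1). Capitals mark the motif matches, and the sequences run 5′ to 3′ on the strand of the gene. Cxcl10 lies at chr5:92348890-92349139 on the minus strand, with the interferon-type match 213 bases before the start and the NF-kappaB-type matches 159 and 103 bases before it. Cxcl14 lies at chr13:56296552-56296801 on the minus strand, with its match 172 bases before the start, and Cx3cl1 lies at chr8:94771930-94772179 on the plus strand with no match.
Cxcl10: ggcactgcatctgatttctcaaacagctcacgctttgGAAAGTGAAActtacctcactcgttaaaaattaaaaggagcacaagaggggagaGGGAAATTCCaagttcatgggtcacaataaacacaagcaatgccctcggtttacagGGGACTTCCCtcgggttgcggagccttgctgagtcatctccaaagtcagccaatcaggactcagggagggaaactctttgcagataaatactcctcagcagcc
Cxcl14: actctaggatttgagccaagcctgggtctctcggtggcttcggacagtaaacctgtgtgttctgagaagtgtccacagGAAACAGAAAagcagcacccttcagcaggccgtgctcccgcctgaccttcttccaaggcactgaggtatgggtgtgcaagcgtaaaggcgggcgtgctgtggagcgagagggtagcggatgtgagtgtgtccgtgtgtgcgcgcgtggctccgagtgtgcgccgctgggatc
Cx3cl1: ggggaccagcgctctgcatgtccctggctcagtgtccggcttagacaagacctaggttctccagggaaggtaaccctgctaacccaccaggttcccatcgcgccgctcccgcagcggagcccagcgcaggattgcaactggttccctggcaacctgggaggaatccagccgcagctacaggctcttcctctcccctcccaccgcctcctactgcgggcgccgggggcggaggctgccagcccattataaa
A match describes the letters of the window and does not show binding.

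All levels below are log2 of the scanner's processed signal minus the array's own 75th percentile, so 0 is the 75th percentile itself, and levels of different genes are not compared. The 75th percentile ran from 141.3 to 806.3 signal units over the arrays, between 46.7% and 60.9% of spots were well above background, and none was saturated. The lowest percentiles were 141.3 and 245.5, on replicates 3 and 4 of the Gyk knockdown. The label check came out as follows. The Pparg probe was at 4.10, 4.10, 4.38 and 4.36 in Pparg knockdown cells, against 6.00, 5.97, 6.29 and 6.35 in their controls. The Gk probe was at -2.61, -3.0, -1.40 and -1.19 in Gyk knockdown cells, against 0.40, 0.38, 0.22 and 0.39 in their controls. In mice the Pparg probe went against the label. It was at 7.97, 7.93, 8.06 and 7.90 in the labelled knockout in the cold, against 5.99, 6.41, 5.28 and 5.67 in controls, and at 7.50, 7.53, 7.44 and 7.37 in the labelled knockout at room temperature, against 5.53, 5.26, 5.47 and 5.29 in controls. Where the Pparg probe used here lies relative to a deleted part of the gene is not given in the sources used here, so the mouse directions below rest on the labels. The fat cell markers Adipoq, Plin1, Fabp4, Cidec and Lipe were measured in all 8 groups.

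Pparg knockdown in culture raised a broad set of chemokine ligands. Of 16 members tested, 9 rose and 1 fell at an adjusted p under 0.05, against 34.1% of the 12843 genes tested called in either direction (18.1% higher and 16% lower). The 9 were Cx3cl1, Cxcl12, Cxcl16, Ccl5, Ccl8, Ccl9, Ccl7, Ccl2 and Cxcl10, and the member that fell was Ccl6. The members' median log2 difference was 0.64, against 0.03 over all genes tested. Ccl17, Ccl19, Ccl25, Ccl27a, Cxcl1 and Cxcl5 did not pass in this fit, which holds no slide term, with log2 differences from -0.17 (Ccl25) to 0.34 (Cxcl5). Knockdown and control arrays of the same slide deviated together. Residual correlations were from 0.70 to 0.77 for the same replicate number and from 0.69 to 0.72 for different numbers on a slide. With the slide as a block, 7596 of the 12843 genes were called, of which 12 were members, 11 higher and 1 lower. With the replicate number as a block, 7407 of the 12843 genes were called, of which 11 were members. With the scanner's background replaced by a normexp correction and an offset of 50, 5 members were called, all higher. Over all genes 2958 of 12843 were then called, 1492 of them higher.

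Both membrane-anchored ligands rose. Cx3cl1, also called fractalkine, was at 2.64, 2.65, 2.72 and 2.98 in Pparg knockdown cells, against -0.18, -0.32, 0.04 and 0.03 in control cells. Every knockdown array stood more than 2 log2 units above every control array. The difference was 2.85 ± 0.12 (log2, SE; limma adjusted p = 9.03e-07), a 7.22-fold higher signal, and it was 2.89 on slide 1 and 2.81 on slide 2. Cxcl16, which binds Cxcr6, was at -2.79, -3.08, -2.89 and -2.75 in knockdown cells, against -4.67, -4.23, -4.50 and -4.26 in control cells. The groups did not overlap, and the difference was 1.54 ± 0.12 (limma adjusted p = 3.28e-05). With normexp the Cxcl16 difference was 0.20 with an adjusted p of 0.676.

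Cxcl12, which retains leukocytes and progenitors through Cxcr4, was at -2.54, -2.46, -2.44 and -2.10 in Pparg knockdown cells, against -5.18, -5.99, -5.26 and -5.04 in control cells. It was well above background on 4 knockdown arrays and on 1 control array, and the groups did not overlap. The difference was 2.98 ± 0.21 (log2, SE; limma adjusted p = 1.35e-05). A second Cxcl12 probe, above background on none of these arrays, differed by 0.89, and with normexp the difference of the main probe was 0.75 with an adjusted p of 0.19.

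The monocyte-attracting ligands rose together, and 3 of the 3 tested were called. Ccl2 was at 5.29, 5.25, 5.28 and 5.58 in Pparg knockdown cells, against 4.47, 4.52, 4.74 and 4.74 in control cells, a difference of 0.73 ± 0.11 (log2, SE; limma adjusted p = 0.000951). Its neighbour in function Ccl7 was at 4.35, 4.35, 4.35 and 4.59 in knockdown cells, against 3.65, 3.69, 3.90 and 3.76 in control cells, a difference of 0.66 ± 0.09 (adjusted p = 0.000672). Neither gene's groups overlapped, and the highest knockdown value of both was on replicate 4. Ccl8 was at -2.67, -2.68, -2.36 and -2.32 in knockdown cells, against -4.35, -3.82, -3.83 and -3.72 in control cells. Its difference was 1.42 ± 0.16 (limma adjusted p = 0.000187), and with normexp it was 0.27 with an adjusted p of 0.564.

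Among the other inflammatory CC ligands, Ccl5, which attracts T cells and monocytes, was at 1.26, 0.96, 1.08 and 1.19 in Pparg knockdown cells, against -0.71, -0.79, -0.36 and -0.04 in control cells. The groups did not overlap, and the difference was 1.59 ± 0.17 (log2, SE; limma adjusted p = 0.000135), a 3.02-fold higher signal. Ccl9, a Ccr1 ligand, was at 3.09, 3.01, 3.21 and 3.23 in knockdown cells, against 2.44, 2.48, 2.55 and 2.57 in control cells, a difference of 0.62 ± 0.08 (adjusted p = 0.000414) without overlap. Ccl6, another Ccr1 ligand, averaged -3.65 ± 0.12 in knockdown cells and -3.30 ± 0.15 in control cells (SD, n = 4 each). Its groups overlapped and its fall of 0.35 (limma adjusted p = 0.0268) was no longer called without control replicate 1, 3 or 4 or knockdown replicate 1, 2 or 4, with adjusted p-values from 0.0127 to 0.0743 over the 8 arrays left out in turn.

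Cxcl10, a Cxcr3 ligand, also rose. It was at -1.24, -1.41, -1.86 and -1.94 in Pparg knockdown cells, against -2.52, -2.68, -2.64 and -2.67 in control cells. The knockdown arrays of slide 1 were higher than those of slide 2, and the groups did not overlap. The difference was 1.02 ± 0.16 (log2, SE; limma adjusted p = 0.00123). It was 1.28 within slide 1 and 0.76 within slide 2, and with normexp it was 0.51 with an adjusted p of 0.115.

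**Figure D2:**
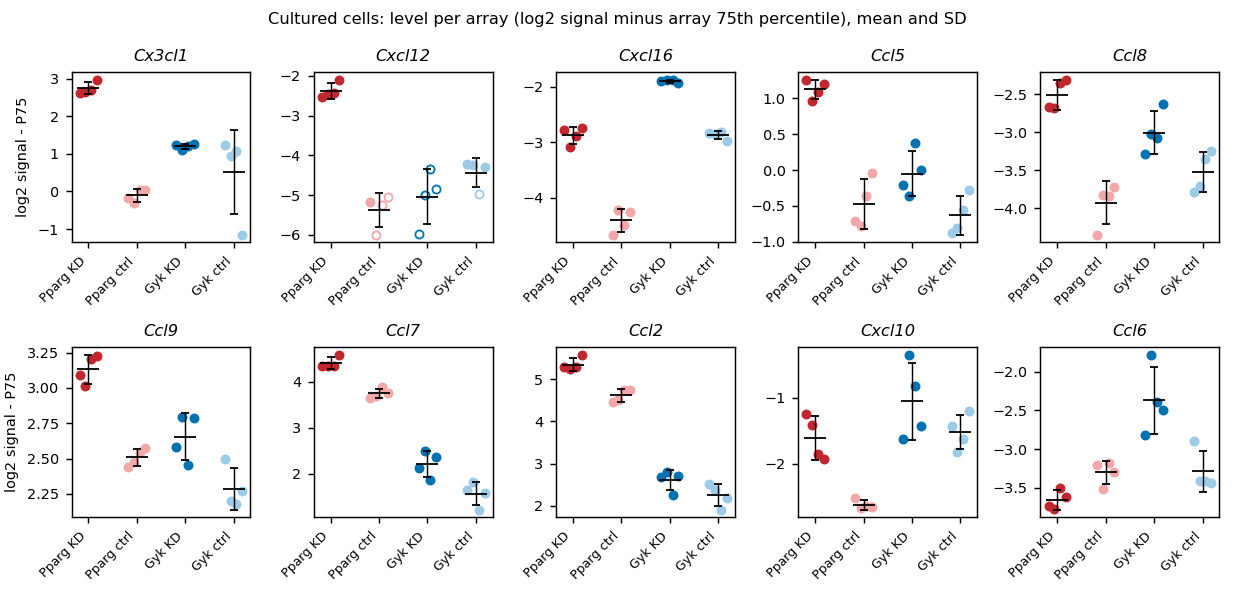
Level of 10 chemokine ligand genes on each culture array (log2 processed signal minus the array's 75th percentile), with group means and SD as bars (KD knockdown, ctrl control) and open points for arrays not well above background. Cx3cl1 lies at 2.64 or above in Pparg knockdown cells and at 0.04 or below in their controls, and Cxcl16 is higher in both knockdowns than in its own controls.

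Genes of the pathways around the ligands were counted from lists, to be read against the 34.1% of all genes called in this comparison (18.1% higher and 16% lower). Of 19 tested inflammatory inducers and NF-kappaB targets, 10 rose and 0 fell after Pparg knockdown in the limma fit (12 had an unadjusted p under 0.05), led by the cytokine Il6 (2.38 ± 0.12), the receptor Tlr2 (2.03 ± 0.08) and the adhesion molecule Vcam1 (1.43 ± 0.08; log2, SE). Of 13 tested interferon signalling genes, 8 rose and 1 fell, with Ifit3 at 1.57 ± 0.08 and Ifit1 at 1.28 ± 0.19, and the gene that fell, named after its value was seen, was the receptor subunit Ifngr1 (-0.52 ± 0.10). Of 7 tested chemokine receptors, 3 fell, namely Ccr10 (-0.72 ± 0.09), the scavenger Ackr3 (-0.68 ± 0.07) and the Cxcl16 receptor Cxcr6 (-0.51 ± 0.11). Of 5 tested macrophage markers, 2 rose, namely Cd14 (1.18 ± 0.15) and Mertk (0.58 ± 0.11). Of 7 tested preadipocyte and fibroblast markers, 3 rose, namely Pdgfrb (1.48 ± 0.07), Ly6a (1.07 ± 0.09) and Pdgfra (0.88 ± 0.11), and all 5 tested fat cell markers fell. The summed signal of the 8 measured macrophage markers, each as a multiple of the array's 75th percentile, ran from 3.32 to 4.87 in knockdown cells and from 2.33 to 3.11 in control cells. Mrc1, Lyz2 and Fcgr1 were well above background on no array of either group, and the part of the cell makeup in these levels was not tested. In bulk RNA, fewer cells of a type and less RNA per cell cannot be told apart.

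Gyk knockdown called 2 of the 14 members tested, both higher, against 8.76% of the 12219 genes tested called in either direction (4.65% higher and 4.11% lower). The members' median log2 difference was 0.42, against 0.02 over all genes. Cxcl16 was at -1.89, -1.88, -1.89 and -1.94 in Gyk knockdown cells, against -2.83, -2.85, -2.81 and -2.98 in control cells. The groups lay nearly 1 log2 unit apart with little spread, and the difference was 0.97 ± 0.09 (log2, SE; limma adjusted p = 0.00155), with 0.96 on slide 1 and 0.98 on slide 2. With normexp it was 0.53 with an adjusted p of 0.137. Ccl6 averaged -2.37 ± 0.43 in knockdown cells and -3.29 ± 0.26 in control cells (SD, n = 4 each), a difference of 0.91 ± 0.23 (limma adjusted p = 0.0484) without overlap. This call was lost without any one of the control replicates 1 to 4 or of the knockdown replicates 2, 3 and 4, with adjusted p-values from 0.0307 to 0.133 over the 8 arrays left out in turn. It was also lost with normexp (0.46, adjusted p = 0.326), quantile normalization (0.0645), median centring (0.0924), no filter on dim probes (0.0939), the replicate block (0.126) and without the 2 dimmest arrays (0.103).

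Several members that Pparg knockdown raised had positive but uncalled differences after Gyk knockdown. Ccl7 differed by 0.64 ± 0.18 (log2, SE; limma adjusted p = 0.066), at 2.13, 2.51, 1.88 and 2.36 in knockdown cells, against 1.66, 1.82, 1.23 and 1.58 in control cells, without overlap. Ccl5 differed by 0.58 ± 0.20, Ccl8 by 0.52 ± 0.18, Cxcl10 by 0.47 ± 0.29, Ccl9 by 0.37 ± 0.13 and Ccl2 by 0.37 ± 0.17, with adjusted p-values from 0.108 (Ccl5) to 0.331 (Cxcl10). Cx3cl1 was at 1.23, 1.12, 1.21 and 1.26 in knockdown cells, against 1.25, 0.94, 1.07 and -1.15 in control cells. Control replicate 4 stood apart there, and the difference of 0.68 ± 0.49 was not called. Cxcl12 was well above background on no Gyk knockdown array and on 3 control arrays, so it was not tested in this comparison, and Cxcl5 likewise read 0 and 3 arrays. Of 17 tested inflammatory inducers, the macrophage growth factor Csf1 rose (0.91 ± 0.11), none of the 13 interferon genes tested was called in the limma fit (7 had an unadjusted p under 0.05), and the Ccl25 receptor Ccr9 fell by 0.81. The macrophage marker sum ran from 1.62 to 5.30 in knockdown cells and from 2.79 to 3.07 in control cells.

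The effects of the 2 knockdowns were compared directly, as the Pparg knockdown difference minus the Gyk knockdown difference, over the 16 culture arrays. Of 16 members tested, 5 were higher and 1 was lower in this contrast, against 12.4% of the 13118 genes tested called in either direction (6.29% higher and 6.14% lower). This contrast uses the same arrays as the separate comparisons. The 2 experiments differ in slide and scan day, so the gene knocked down and the experiment cannot be told apart here. Their control cells also differed in level, for example Ccl2 averaged 4.62 in Pparg control and 2.25 in Gyk control cells. Cxcl16 averaged -4.41 and -2.87 in the same order. The fitted excess for Cxcl12 was 3.59 ± 0.43 (log2, SE; limma adjusted p = 4.53e-05), but no Gyk knockdown array and 1 Pparg control array measured it, so this is not an exact difference of effects. The excess was 2.17 ± 0.53 for Cx3cl1 (limma adjusted p = 0.0135) and 1.02 ± 0.27 for Ccl5 (adjusted p = 0.0217). Ccl6 was lower by -1.27 ± 0.26 (limma adjusted p = 0.00475). Of these, Cxcl12 with normexp was 0.72 (adjusted p = 0.497) and Ccl6 was -0.87 (adjusted p = 0.208). Ccl8 at 0.91 ± 0.25 (adjusted p = 0.028) and Cxcl16 at 0.57 ± 0.15 (adjusted p = 0.0251) reversed with normexp, to -0.02 and -0.33, and missed the threshold with quantile normalization, median centring and no filter (adjusted p from 0.0545 to 0.0793 for Ccl8 and from 0.0623 to 0.112 for Cxcl16). Their calls were also lost without single arrays, for Ccl8 without Pparg control 1, Pparg knockdown 3 or 4 or Gyk control 3 or 4, and for Cxcl16 without Pparg control 3, Pparg knockdown 1 or 4 or Gyk control 3. The adjusted p-values then reached 0.0612 for Ccl8 and 0.0576 for Cxcl16. Ccl2 (0.37 ± 0.21), Ccl7 (0.02 ± 0.21), Ccl9 (0.25 ± 0.15) and Cxcl10 (0.55 ± 0.35) were not called.

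In mice, 21 members were tested in 1 fit over the 16 mouse arrays. In the cold, 7 members rose and 1 fell in the labelled Pparg knockout, against 38.4% of the 14065 genes tested called in either direction (15.9% higher and 22.4% lower). Cxcl14, Cxcl16, Ccl11, Ccl24, Ccl8, Ccl4 and Ccl12 rose, and Ccl25 fell. The median over the 21 members was 0.79 (log2), against -0.05 over all genes. At room temperature, 3 members rose (Cxcl14, Ccl11 and Ccl5) and 3 fell (Cx3cl1, Ccl25 and Cxcl12) in the labelled knockout, against 34.9% of genes called (15.2% higher and 19.7% lower), with a median of 0.61 over the members and -0.06 over all genes. In fits to the arrays of 1 temperature alone, 11 members were called in the cold, 11 higher and 0 lower, and 7 at room temperature, 3 higher and 4 lower. Over all genes these fits called 4155 of 12982 in the cold (1775 higher) and 5903 of 13232 at room temperature (2590 higher). Without the filter on dim probes, all 34 members entered the test, also those near background. The room temperature count was then 12 members, 3 higher and 9 lower, against 6929 of 20659 genes called, 2093 higher and 4836 lower. The 4 room temperature arrays of the labelled knockout had 75th percentiles from 498.5 to 603.7 signal units, against 292.7 to 406.2 on the control arrays, and the part of this in the counts was not tested.

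**Figure D3:**
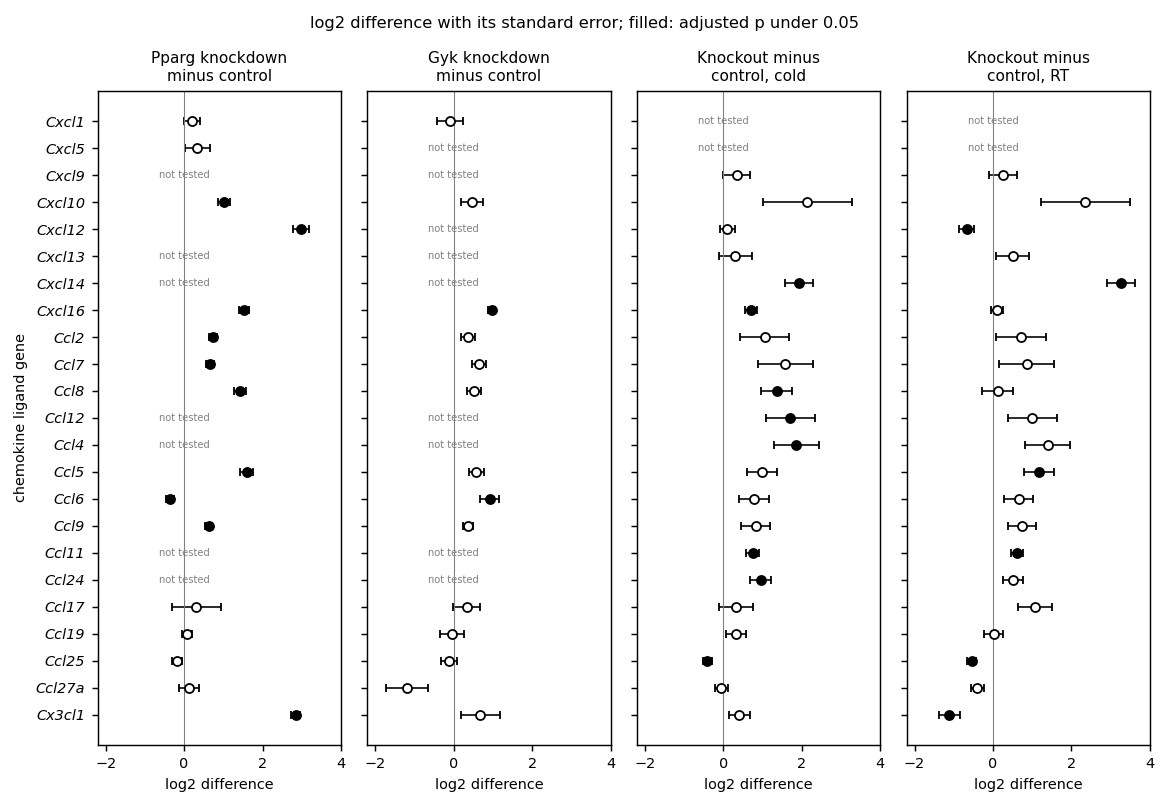
Difference in level of each tested chemokine ligand gene (log2, with its standard error) for the 4 knockdown or labelled knockout comparisons, with filled points for an adjusted p under 0.05 over all genes tested (RT room temperature). In Pparg knockdown cells 9 of 16 members are filled to the right of 0, in Gyk knockdown cells 2 of 14, and in the labelled knockout 7 of 21 in the cold and 3 of 21 at room temperature.

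Cxcl14, a ligand made by many epithelia and by brown fat and known to attract macrophages and other myeloid cells, had the largest called difference between the mouse genotypes at both temperatures. In the cold it was at 3.59, 4.51, 3.25 and 2.41 in the labelled knockout, against 1.42, 1.59, 1.23 and 1.79 in controls. At room temperature it was at 5.49, 5.08, 4.60 and 4.60 in the labelled knockout, against 1.25, 2.19, 1.61 and 1.68 in controls. The genotypes did not overlap at either temperature. The differences were 1.93 ± 0.35 in the cold (log2, SE; limma adjusted p = 0.000678) and 3.26 ± 0.35 at room temperature (adjusted p = 7.98e-06), the second a 9.59-fold higher signal. Within slides they were 2.54 and 1.31 in the cold and 2.88 and 3.64 at room temperature. The change of the genotype difference with temperature was -1.33 ± 0.50 and was not called (limma adjusted p = 0.0873).

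The eosinophil attractants Ccl11 and Ccl24 were also higher. Ccl11 was at -2.31, -1.97, -2.15 and -1.96 in the cold in the labelled knockout, against -2.93, -2.79, -2.80 and -2.86 in controls, a difference of 0.75 ± 0.16 (log2, SE; limma adjusted p = 0.00242). At room temperature Ccl11 was at -0.28, -0.26, -0.43 and 0.26 in the labelled knockout, against -1.23, -0.56, -0.63 and -0.75 in controls, a difference of 0.61 ± 0.16 (adjusted p = 0.00922). Neither comparison overlapped. Ccl24 was at 0.16, 0.99, 0.77 and 1.66 in the cold in the labelled knockout, against -0.19, 0.14, -0.15 and -0.03 in controls. Its groups were separated by a narrow margin, and the difference was 0.95 ± 0.27 (limma adjusted p = 0.0112), with 0.60 on slide 1 and 1.31 on slide 2. At room temperature the Ccl24 difference of 0.51 ± 0.27 was not called.

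Cx3cl1 was the member whose genotype difference was called as differing between the cold and the room temperature arrays. Those arrays also differ in slide and scan day, so temperature and array batch cannot be told apart in this change. At room temperature it was at -1.54, -1.39, -1.88 and -1.38 in the labelled knockout, against -1.18, -0.42, -0.01 and -0.11 in controls. Each labelled knockout array lay below each control array, and Cx3cl1 fell by 1.12 (SE 0.27; limma adjusted p = 0.00494), with differences of -0.83 and -1.41 within the slides. In the cold Cx3cl1 was at -0.44, -0.71, 0.21 and 0.25 in the labelled knockout, against -0.20, -0.81, -0.48 and -0.83 in controls, with overlap and a difference of 0.41 ± 0.27 (limma adjusted p = 0.255; -0.07 on slide 1 and 0.88 on slide 2). The change of the effect, cold minus room temperature, was 1.52 ± 0.38 (limma adjusted p = 0.0188), against 13.4% of genes called in either direction in this contrast (6.11% higher and 7.24% lower), and it kept its call in every alternative run. No other member of the 21 was called in it, but 5 of the 21, with Cx3cl1 among them, had an unadjusted p under 0.05. Cxcl12, Cxcl16 and Cxcl14 had limma adjusted p-values of 0.0723, 0.0723 and 0.0873. Without room temperature labelled knockout replicate 4 the contrast held 3 called members. Of 6 tested endothelial markers, 5 fell in the labelled knockout at room temperature, where 19.7% of all genes fell, among them Pecam1 (-0.68 ± 0.16), Cdh5 (-0.64 ± 0.17), Kdr (-0.63 ± 0.17) and Flt1 (-0.53 ± 0.11), and their part in the Cx3cl1 level was not tested.

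Cxcl12 at room temperature was at 3.1, 3.13, 3.0 and 4.02 in the labelled knockout, against 4.18, 3.75, 3.99 and 3.99 in controls. Labelled knockout replicate 4 lay among the controls, and Cxcl12 fell by 0.66 (SE 0.19; limma adjusted p = 0.0141). The second Cxcl12 probe differed by 0.54 in the other direction, and the mean of both probes by -0.06 (adjusted p = 0.819). With median centring the adjusted p was 0.0558. In the cold the main probe differed by 0.10 ± 0.19 and the second by 1.43. Which transcripts each probe detects was not tested.

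Ccl25, known as the Ccr9 ligand of thymus and gut, was lower in the labelled knockout at both temperatures. It was at 0.80, 0.88, 1.12 and 1.15 in the cold in the labelled knockout, against 1.33, 1.14, 1.45 and 1.66 in controls, a difference of -0.40 ± 0.12 (log2, SE; limma adjusted p = 0.0171) with overlap. Without cold control replicate 4 it was -0.32 with an adjusted p of 0.0551, and in a fit to the cold arrays alone the adjusted p was 0.0686. At room temperature it was at 0.13, 0.10, -0.05 and 0.13 in the labelled knockout, against 0.77, 0.55, 0.47 and 0.70 in controls, without overlap. That difference was -0.54 ± 0.12 (limma adjusted p = 0.00322), and a second Ccl25 probe differed by -0.63.

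Cxcl16 was at -1.68, -1.50, -0.94 and -1.35 in the cold in the labelled knockout, against -2.19, -2.29, -2.05 and -1.79 in controls, with no overlap and a difference of 0.71 ± 0.15 (log2, SE; limma adjusted p = 0.00196). At room temperature its difference was 0.10 ± 0.15 (limma adjusted p = 0.62), and the change of the effect with temperature was 0.61 ± 0.21 (adjusted p = 0.0723). Ccl8 was at 0.48, 0.59, -0.06 and 0.70 in the cold in the labelled knockout, against -1.34, 0.08, -1.37 and -1.10 in controls. Control replicate 2 reached into the labelled knockout range, and the Ccl8 difference was 1.36 ± 0.40 (limma adjusted p = 0.0145). At room temperature it was 0.12 ± 0.40 (adjusted p = 0.833).

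Ccl4, made by activated macrophages and lymphocytes, was at -2.96, -3.17, -3.11 and -2.71 in the cold in the labelled knockout, against -4.49, -4.19, -5.21 and -5.51 in controls. Only control replicates 1 and 2 were well above background, and the difference was 1.86 ± 0.57 (log2, SE; limma adjusted p = 0.0188). Without control replicate 4 it was 1.64 with an adjusted p of 0.0561, with normexp 0.76 with an adjusted p of 0.0676, and with the replicate block the adjusted p was 0.0596. Ccl12 averaged -1.71 ± 0.45 in the cold in the labelled knockout and -3.42 ± 0.76 in controls (SD, n = 4 each), a difference of 1.71 ± 0.63 (limma adjusted p = 0.0444), with 3 of the 4 control arrays well above background. Its call was lost without any one of the control replicates 1 to 4 or of the labelled knockout replicates 2, 3 and 4, with adjusted p-values up to 0.126, and with quantile normalization (0.0759), no filter (0.0693) and the replicate block (0.0942). Ccl7 (1.58 ± 0.71) and Ccl2 (1.05 ± 0.63) did not overlap between the genotypes in the cold either, and were not called (limma adjusted p = 0.0928 for Ccl7 and 0.21 for Ccl2). Without cold control replicate 4, 5 members were called in the cold in place of 8.

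Ccl5 at room temperature was at -0.50, -1.13, 0.00 and 0.63 in the labelled knockout, against -2.22, -1.01, -1.16 and -1.27 in controls. Labelled knockout replicate 2 lay within the control range, and the difference was 1.17 ± 0.38 (log2, SE; limma adjusted p = 0.0268), with 1.93 on slide 1 and 0.41 on slide 2. Without control replicate 1 it was 0.90 (adjusted p = 0.0854), without labelled knockout replicate 3 it was 1.08 (adjusted p = 0.0663) and without replicate 4 it was 0.88 (adjusted p = 0.0885). In the cold the Ccl5 difference was 0.99 ± 0.38 and just missed the threshold (limma adjusted p = 0.0514).

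Several inflammatory members varied widely among the room temperature arrays of both genotypes. The SD of Ccl2 was 1.52 in the labelled knockout and 1.08 in controls, and that of Cxcl10 was 2.31 and 1.74. Ccl2 was at 0.42, -1.43, -1.28 and 1.77 in the labelled knockout, against -2.27, -0.16, 0.14 and -1.11 in controls. Cxcl10 was at -2.08, -3.22, -3.38 and 1.58 in the labelled knockout, against -6.49, -4.26, -3.33 and -2.45 in controls, of which the first was not well above background. Labelled knockout replicate 4, and for Ccl2 also replicate 1, was high. The room temperature differences of Cxcl10 (2.36 ± 1.13), Ccl4 (1.39 ± 0.57), Ccl17 (1.07 ± 0.43), Ccl12 (1.0 ± 0.63), Ccl7 (0.86 ± 0.71) and Ccl2 (0.72 ± 0.63) were not called (limma adjusted p from 0.0687 for Ccl17 to 0.403 for Ccl2). The neutrophil attractant Cxcl1 was measured on too few mouse arrays to test. It reached 0.14 and 0.04 on replicates 3 and 4 of the labelled knockout in the cold and -3.96 on replicate 4 at room temperature, and was not well above background on any other mouse array.

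**Figure D4:**
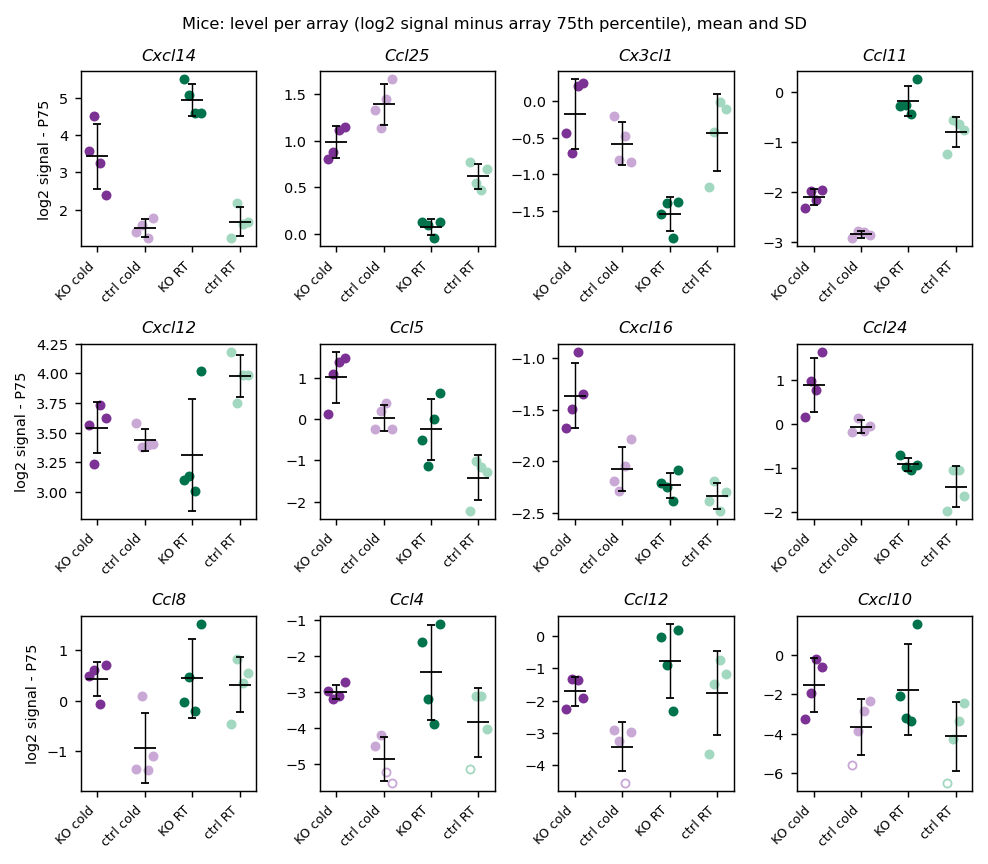
Level of 12 chemokine ligand genes on each mouse array (log2 processed signal minus the array's 75th percentile), with group means and SD as bars (KO labelled Pparg knockout, ctrl control, RT room temperature) and open points for arrays not well above background. Cxcl14 lies at 2.41 or above on the labelled knockout arrays and at 2.19 or below on the control arrays, and Cx3cl1 lies lowest in the labelled knockout at room temperature.

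The surrounding genes in mice were counted from the same lists, to be read against the 38.4% of all genes called in the cold and the 34.9% called at room temperature. Of 17 tested inflammatory inducers and NF-kappaB targets, 8 rose and 0 fell in the cold and 7 rose and 0 fell at room temperature in the labelled knockout (limma; 8 and 11 had an unadjusted p under 0.05). The acute-phase protein Saa3, among those that rose, was well above background on no control array at either temperature, so no fold is given. Vcam1 differed by 4.17 ± 0.22 in the cold and 2.32 ± 0.22 at room temperature, and the iron-binding protein Lcn2 by 2.38 ± 0.28 in the cold and 3.94 ± 0.28 at room temperature (log2, SE). Of 14 tested interferon genes, 2 rose and 1 fell in the cold (Ifit3 1.78 ± 0.47, Irf8 1.30 ± 0.29 and Ifnar2 -0.68 ± 0.11), and 2 rose and 3 fell at room temperature, among them Ifnar2 (-1.19 ± 0.11) and Stat2 (0.88 ± 0.25). Of 15 tested chemokine receptors, Ccr10 (0.97 ± 0.24), the Cxcl10 receptor Cxcr3 (0.92 ± 0.28) and the scavenger Ackr1 (0.91 ± 0.26) rose in the cold. The fourth call, for the Cxcl12 receptor Cxcr4, compares groups in which no array was well above background, so no direction is drawn from it. At room temperature Cxcr2 fell by 2.23, with 2 of the 4 labelled knockout arrays well above background, and Ccr2, the Ccl2 receptor of monocytes (0.94 ± 0.18), and Ccr10 (0.69 ± 0.24) rose.

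More macrophage markers rose in the labelled knockout in the cold than at room temperature, and other leukocyte markers varied. Whether they followed the ligands from array to array was not tested. The cold counts here are to be read against 15.9% of all genes called higher and 22.4% lower in the labelled knockout. Of 8 tested macrophage markers, 6 rose in the labelled knockout in the cold, among them Cd14 (1.11 ± 0.17), Mrc1 (1.10 ± 0.25), Lyz2 (1.04 ± 0.32) and Itgam (0.99 ± 0.22; log2, SE). At room temperature, where 15.2% of all genes rose, 1 rose, Cd14 by 1.91 ± 0.17. The summed signal of the macrophage list, as multiples of the 75th percentile, ran from 26.3 to 41.0 in the labelled knockout in the cold, against 15.8 to 19.3 in controls, and from 27.4 to 30.5 in the labelled knockout at room temperature, against 22.2 to 31.3 in controls. Each of the 8 measured markers was above background on some array of each mouse group. The leukocyte marker Ptprc (0.96 ± 0.26) also rose in the cold. Of 3 tested neutrophil genes, S100a9 (1.87 ± 0.40) and S100a8 (1.86 ± 0.37) rose and Csf3r differed by -0.10 ± 0.13. The summed signal of that list ran from 35.2 to 48.4 in the labelled knockout, against 39.1 to 44.7 in controls. This sum does not follow S100a8 and S100a9. In Gyk knockdown cells, where neither was well above background on any array, it still ran from 15.2 to 19.8. Of 3 tested lymphocyte markers, 0 rose and 1 fell (Cd4, -0.39 ± 0.13), and the other two were also below 0. Higher in the cold labelled knockout were also 5 of 7 preadipocyte and fibroblast markers, and all 5 fat cell markers fell. The part of the cell makeup in the ligand levels was not tested.

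The last comparison set cold exposure against room temperature. These arrays differ in slide and scan day as well, so temperature and array batch cannot be told apart, and they are the arrays already used for the genotype comparisons. The thermogenic gene Ucp1 differed by -1.03 in the labelled knockout and -1.04 in controls (log2, cold minus room temperature). All genes together had a median difference of 0.23 (log2) in both genotypes, and with median centring it was 0.42 in the labelled knockout and 0.58 in controls. In the labelled knockout 7 members rose and 4 fell in the cold, against 65.5% of genes called (40.9% higher and 24.6% lower), with a members' median of -0.01. In controls 4 rose and 7 fell, against 66.7% of genes called (41.6% higher and 25.1% lower), with a members' median of -0.30. The balance in controls turned with the scaling, with 6 higher and 3 lower under median centring, 6 and 6 under quantile normalization, and 4 and 3 under normexp. In both genotypes 11 of 21 members were thus called.

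Ccl11 had the smallest adjusted p among the members that fell in the cold, averaging -2.10 ± 0.17 in the cold and -0.18 ± 0.30 at room temperature in the labelled knockout, and -2.84 ± 0.07 in the cold and -0.79 ± 0.30 at room temperature in controls (SD, n = 4 each). The differences were -1.92 ± 0.16 and -2.05 ± 0.16 (log2, SE; limma adjusted p = 1.14e-07 in the labelled knockout and 5.3e-08 in controls). The other eosinophil attractant, Ccl24, rose by 1.81 ± 0.27 in the labelled knockout and by 1.37 ± 0.27 in controls. Ccl25 rose by 0.91 ± 0.12 and 0.77 ± 0.12 and Ccl5 by 1.26 ± 0.38 and 1.44 ± 0.38 in the same order, none with a call lost when any 1 array was left out. Ccl8 fell by 1.24 (SE 0.40) in controls and differed by -0.01 ± 0.40 in the labelled knockout. Cx3cl1 (1.37 ± 0.27) and Cxcl16 (0.87 ± 0.15) rose and Cxcl14 fell by 1.51 in the labelled knockout. In controls Cx3cl1 differed by -0.15 ± 0.27, Cxcl16 by 0.26 ± 0.15 and Cxcl14 by -0.17 ± 0.35. Compared directly, the cold effect differed between the genotypes by call for Cx3cl1 alone. Cxcl16, Cxcl14 and Ccl8 were not called in that contrast (limma adjusted p = 0.0723, 0.0873 and 0.157).

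The remaining calls in the cold, apart from Ccl27a in controls, were lost when single arrays were left out. In controls Ccl2 fell by 1.66, Ccl7 by 2.12 and Ccl12 by 1.66, and these were lost without room temperature control 2 or 3 (Ccl2, Ccl7 and Ccl12), room temperature control 4 (Ccl12), cold control 2 (Ccl2) or cold control 3 (Ccl2 and Ccl12), with adjusted p up to 0.0987. Cxcl9 rose by 0.98 in controls and by 1.06 in the labelled knockout, and was lost without room temperature control 1 or cold control 3 or 4, and without room temperature labelled knockout 2 or 3 or cold labelled knockout 3, with adjusted p up to 0.0883. Cxcl12 fell by 0.54 in controls, was lost without room temperature control 1 (adjusted p = 0.0604), and its second probe differed by 0.90. Ccl27a fell by 0.78 in controls and 0.43 in the labelled knockout, but its 3 probes ran from -2.38 to 0.48 in controls, and it has a near-identical copy, so its value is uncertain. In the labelled knockout the Ccl27a call was lost without room temperature replicate 1 or 4 or cold replicate 1, 3 or 4 (adjusted p up to 0.099). Also in the labelled knockout, Ccl19 rose by 0.64 and Ccl17 fell by 1.04, and their calls were lost without room temperature replicate 1 or cold replicate 1 (both), room temperature replicate 4 or cold replicate 3 or 4 (Ccl17) or cold replicate 2 (Ccl19), with adjusted p up to 0.153. Normexp also ended the calls of Ccl2, Ccl7, Ccl12 and Cxcl12 in controls (adjusted p from 0.0515 to 0.0809) and of Ccl17, Ccl19 and Ccl27a in the labelled knockout (from 0.0726 to 0.739), and median centring those of Ccl2, Ccl12, Cxcl12 and Ccl27a in controls (from 0.0528 to 0.428) and of Ccl17 and Ccl27a in the labelled knockout (0.0922 and 0.277).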

How the data were processed

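The arrays are Agilent one-colour mouse arrays. Per the labels, Cy3-labelled cRNA was made from total RNA, and per the submitters' processing notes the scans were read with Agilent Feature Extraction 10.7.3.1. The deposited files hold intensity values per spot, and the authors' processed intensity (background-subtracted by the scanner software, per the file headers) is identical to the series' value table, so its scale is linear. Each array has 44397 spots, of which 1377 are controls. From the deposited intensities, control spots and outlying spots (101 to 247 per array) were left out, spots of a probe were averaged, and log2 values minus the array's 75th percentile were taken. Of 39429 probes, 27234 (69.1%) were named through RefSeq transcripts, and the probe with the highest mean over the 32 arrays stood for a gene. Every gene with 4 or more arrays well above background within a fit entered limma 3.58.1 (R 4.3.3; 2-sided). Its p-values were adjusted across the whole fit by the Benjamini-Hochberg method and called under 0.05. Each knockdown was fitted with its own controls, and the mouse groups in 1 fit. The fit was tested on simulated data with independent noise on each array, so that test does not cover the correlation within slides given below.

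Full values are given for the 14 members with the smallest adjusted p in a knockdown or knockout comparison. The members and lists were chosen with earlier results of these data known. The number of arrays limits the precision. In the Pparg culture residuals, knockdown and control arrays of the same slide went together. Their correlations were from 0.70 to 0.77 for the same replicate number and from 0.69 to 0.72 for different numbers. The correlation thus followed the slide and not the number. Across slides the correlations ran from -0.79 to -0.68. Residuals cancel out within a group, so these negative values follow from the positive ones and add no separate evidence. Alternatives were normexp (offset 50, on the median signal, as the files used hold no mean signal), quantile normalization, median centring, the mean of a gene's probes, outlying spots kept, no filter, a filter asking for all arrays of a group, slide and replicate blocks, fits to 1 temperature, each array left out, and, chosen after seeing the data, leaving out the 2 dimmest arrays. Promoter windows were searched in Python 3.11.15.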

Additional observations from a re-analysis of the deposited data

Results flagged for a closer look

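Of 150 groups of 4 arrays in which a member was tested for a lone array, 16 held one whose gap to the others took up more of the group's range than Dixon's critical value allows, and chance flags about 1 in 20 groups. In Pparg knockdown cells, replicate 4 was high for Ccl2 (5.58), Ccl7 (4.59) and Ccl17 (-3.30). In Pparg control cells, replicate 1 was high for Ccl17 (-1.87). In Gyk knockdown cells, replicate 2 was low for Ccl27a (-3.03). In Gyk control cells, replicate 3 was low for Ccl17 (-6.13), Cxcl12 (-4.98) and Cxcl5 (-7.23), replicate 1 was high for Ccl6 (-2.89) and replicate 4 was low for Cx3cl1 (-1.15). In the labelled Pparg knockout at room temperature, replicate 4 was high for Ccl6 (3.36), Ccl9 (2.72) and Cxcl12 (4.02), and replicate 1 was low for Ccl19 (-3.73). In control mice, replicate 1 was high in the cold for Cxcl12 (3.58) and low at room temperature for Cxcl13 (-3.60).

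Effects that differed between the experiments were called for 7 gene and contrast pairs. The experiments set against each other also differ in slide and scan day. The labelled knockout effect on Cx3cl1 was 1.52 higher (log2) in the cold than at room temperature. The Pparg knockdown effect exceeded the Gyk knockdown effect by a fitted 3.59 for Cxcl12, which no Gyk knockdown array measured well above background so that the size is not exact, and by 2.17 for Cx3cl1, 1.02 for Ccl5, 0.91 for Ccl8 and 0.57 for Cxcl16, and was lower for Ccl6 by -1.27.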

How the results depend on the processing

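Over 55 called gene and comparison pairs and 1013 alternative values, 895 kept their direction and call, 115 kept the direction but not the call, and 3 reversed. The reversals were Ccl8 (-0.02) and Cxcl16 (-0.33) in Pparg knockdown effect minus Gyk knockdown effect with normexp, and Cxcl12 in cold against room temperature in control mice (0.18) with the mean of its probes. The Cxcl12 value averages its main probe, which differed by -0.54, and its second probe, which differed by 0.90. The cause of the normexp reversals was not tested. Keeping outlying spots or asking for all 4 arrays of a group changed no call of these pairs.

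Member counts were as follows. Gyk knockdown, 2 in the report, gave 0 with normexp, 1 with quantile normalization, median centring, no filter on dim probes, the replicate block or without the 2 dimmest arrays, 4 with the slide block, and 1 to 2 with 1 array left out. Pparg knockdown gave 5 with normexp in place of 10, the difference of knockdown effects 2 in place of 6, and cold in control mice 7 in place of 11. The labelled knockout at room temperature gave 12 of all 34 members without the filter in place of 6 of 21. In the cold it gave 5 to 10 with 1 array left out in place of 8, and 11 in a fit to the cold arrays alone. The change of the knockout effect with temperature gave 2 with quantile normalization, median centring or the slide block in place of 1, and 1 to 3 with 1 array left out.

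Over all genes, Gyk knockdown calls (1070) were 259 with normexp, 447 without the filter, 111 with the replicate block, 294 to 371 without 1 control array and 632 without knockdown replicate 4. Normexp gave 2399 in place of 4903 for the labelled knockout at room temperature, 610 in place of 1879 for its change with temperature and 865 in place of 1631 for the knockdown difference. Without room temperature labelled knockout replicate 1 the change with temperature gave 1240. The slide block gave 7596 and the replicate block 7407 in place of 4375 for Pparg knockdown, and the slide block 2907 for the knockdown difference. Median centring moved the share of higher calls to 34.7% in place of 53.1% (Pparg knockdown), 36.7% in place of 53.1% (Gyk knockdown), 55.9% in place of 43.6% (labelled knockout at room temperature), 24.8% in place of 45.8% (its change with temperature) and 76.5% in place of 62.3% (cold in controls). Normexp moved the change with temperature to 32.3%, and no filter the room temperature knockout to 30.2%. Median centring moved the median of all genes to -0.11 (Pparg knockdown), -0.09 (Gyk knockdown), 0.05 (room temperature knockout), -0.17 (its change with temperature), 0.58 (cold in controls) and 0.42 (cold in the labelled knockout). Same-numbered arrays did not pair in the Gyk and mouse experiments by the rule that each correlation exceed 0.1 (residual correlations from 0.05 to 0.12 for Gyk knockdown, -0.12 to -0.01 for the room temperature knockout and 0.02 to 0.48 for the cold knockout, where 3 of 4 exceeded it and same-numbered arrays also share a slide). Dim members, near background, are limited by signal.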
